A study of Mus musculus with 51 samples.

Results

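The IFIT genes (Ifit1, Ifit2, Ifit3 and Ifit3b) and the OAS genes (Oas1a, Oas1b, Oas2, Oas3, Oasl1 and Oasl2) were measured across 51 RNA-seq libraries from the prefrontal cortex of 17 mice. These 10 genes were taken by symbol from the 24421 genes in each file, and each was listed in every library. Their levels and their change after chronic intermittent ethanol (CIE) vapor were measured in astrocytes (AS), microglia (CD) and total homogenate (TH). Libraries of the 3 preparations were matched to a mouse by the number in their titles.

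All mice were male C57BL/6J animals, bought as adults at 8 weeks of age, and were exposed in chambers for 16 hours a day in 4 weekly cycles. The 9 CIE mice breathed ethanol vapor at 15 to 20 mg/L after an injection of ethanol at 1.6 g/kg with pyrazole, which slows ethanol clearance, at 1 mmol/kg. The 8 control mice breathed air and received saline with the same dose of pyrazole, so pyrazole was shared by both groups. Total homogenate was the 5% of the minced tissue set aside before dissociation, astrocytes were caught with ACSA2 beads, and microglia were caught with Cd11b beads from what the first beads left behind. Bead capture enriches a cell type and does not purify it, and Cd11b is also carried by other myeloid cells.

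IFIT proteins bind viral RNA whose 5′ end marks it as foreign and keep it from being translated. OAS proteins are sensors of double-stranded RNA, and the active enzymes make 2′-5′-linked oligoadenylates, a second messenger of antiviral defence. Both families are classic interferon-stimulated genes. Type I interferon acts through the receptor chains Ifnar1 and Ifnar2, and transcription factors that include Stat2 and Irf9 then bind interferon-stimulated response elements in the promoters of such genes.

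The 4 IFIT genes lay side by side on chromosome 19 (mm10), Ifit1 at chr19:34640889-34650009, Ifit2 at chr19:34550550-34576534, Ifit3 at chr19:34583119-34588982 and Ifit3b at chr19:34607530-34613403, all on the plus strand. The OAS genes lay in 2 groups on chromosome 5, with Oasl2 (chr5:114896926-114912245) and Oasl1 (chr5:114923143-114937911) in the first. Oas2 (chr5:120730333-120749886), Oas3 (chr5:120753098-120777684), Oas1b (chr5:120812635-120824163) and Oas1a (chr5:120896256-120907544) made up the other. RefSeq annotated Oas1b as a transcribed pseudogene and the other 9 as protein coding.

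Promoter windows from RefSeq (GRCm38.p6, 250 bases before and 50 after a start) were matched for 8 of the 10 genes, in 9 windows. They were searched on both strands for the core of the interferon-stimulated response element, spelled GAAANNGAAA, or TTTCNNTTTC on the other strand, with overlapping matches allowed. Of the 9 windows, 5 held it, in 5 of the 8 genes, compared with 3.44% of 32851 windows of all genes. The close copies Ifit3 and Ifit3b, with the same stretches, made up 2 of these 5. The stretches are shown because the 2 Ifit3 copies carried the same letters around the element while their levels differed between preparations, as described further on. Capitals mark the matches, and letters run 5′ to 3′ along the strand of the gene:
Ifit1, chr19:34640770-34640828, plus strand: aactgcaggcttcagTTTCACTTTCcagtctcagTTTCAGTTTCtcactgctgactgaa
Ifit3, chr19:34583363-34583392, plus strand: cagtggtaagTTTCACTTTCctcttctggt
Ifit3b, chr19:34607759-34607788, plus strand: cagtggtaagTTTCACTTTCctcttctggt
Ifit3, chr19:34583397-34583426, plus strand: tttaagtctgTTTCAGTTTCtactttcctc
Ifit3b, chr19:34607793-34607822, plus strand: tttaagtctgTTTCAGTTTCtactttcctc
Oas1a, chr5:120907526-120907552, minus strand: ttctcggGAAATGGAAACTGAAAatct
Oas3, chr5:120777710-120777749, minus strand: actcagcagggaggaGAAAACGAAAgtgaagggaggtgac

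The matches ended between 4 and 178 bases before the start used for each window. In Ifit3, Ifit3b and Oas1a the stretches shown lay at least in part inside the RefSeq span of the gene. In Oas1a, 2 matches overlapped. These exact letters were not in the windows of Ifit2, Oasl1 and Oasl2. A match is a description of letters and not of a bound site.

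Total counts in genes ranged from 571878 to 10041788 in the bead-enriched libraries and from 5042926 to 15594154 in total homogenate, with the fewest in microglia. The members were low-count genes, and no library had more than 417 counts of one member. Markers of the labelled cell types were checked first, with levels in counts per 1000000 (CPM). Of 8 astrocyte markers, 7 had a higher mean in control astrocytes than in homogenate, and the mean of Gfap was 0.232 of that in homogenate. The 8 summed to 10697 to 19062 CPM in control astrocytes and 6148 to 8897 CPM in control homogenate. Oligodendrocyte markers were also high in the astrocyte preparation. The 5 listed summed to 13672 to 19754 CPM there and to 843 to 3257 CPM in homogenate. Values labelled astrocytes are therefore those of a mixed preparation. In control mice the summed level of 8 microglia markers (P2ry12, Tmem119, Cx3cr1 and others) ranged over 22136 to 32919 CPM for microglia, 1502 to 6073 CPM for astrocytes and 556 to 817 CPM for homogenate. CPM were scaled within a preparation by the trimmed mean of M values unless a kilobase scale is named. Changes are log2 fold changes of CIE over control from edgeR's quasi-likelihood test, with SE, and p-values were adjusted over all genes tested in that preparation with Benjamini-Hochberg at a threshold of 0.05.

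In astrocytes, 4 of the 10 genes were higher in CIE mice and none was lower: Ifit2, Ifit3, Ifit3b and Oasl2. Of the 12878 genes tested, 2.91% were called higher. Ifit1, Oas1a and Oas2 were tested and missed the threshold. Oas1b, Oas3 and Oasl1 were below the count filter.

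Ifit3, an RNA-binding IFIT protein, had the largest change of the 7 genes that passed the filter in astrocytes. Its level was 10.9 CPM in the lowest control mouse, 14.5 at the median and 20.4 in the highest, and 20.6, 28.1 and 53 CPM in CIE mice. The 8 control and 9 CIE mice did not overlap, which was true, with CIE higher, of 0.21% of the genes tested. The log2 fold change was 1.01 (SE 0.18, edgeR adjusted p = 0.00484), and the call held without each mouse in turn.

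Oasl2, an OAS-like protein with a ubiquitin-like tail, averaged 11.9 CPM ± 2.55 (SD, n = 8) over control astrocytes, with a range of 8.47 to 16.2, and 22.4 ± 7.57 (SD, n = 9) over CIE astrocytes, with a range of 13.3 to 32.6. Its log2 fold change was 0.92 (SE 0.19, edgeR adjusted p = 0.0116). Every CIE mouse was above the control median and 6 of 9 were above the highest control mouse.

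Ifit3b, the close copy of Ifit3, went from 8.79 CPM ± 1.64 to 13.6 ± 3.42, a log2 fold change of 0.66 (SE 0.15, edgeR adjusted p = 0.018), with 7 of 9 CIE mice above the highest control mouse. Ifit2, another IFIT protein, had the highest CPM of the 10 genes in control astrocytes and went from 19.9 CPM ± 5.33 to 31.1 ± 8.13. Its log2 fold change was 0.65 (SE 0.17, edgeR adjusted p = 0.0294). The Ifit2 call was the least stable of the 4: it was lost on leaving out control mouse 05, 20, 22 or 36 or CIE mouse 26, with adjusted p up to 0.0671 over the 17 fits.

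The other astrocyte genes had higher means in CIE mice without passing the test. Ifit1, which recognises the capped end of foreign RNA, was at 8.74 CPM ± 3.61 and 13.2 ± 4.95 (log2 fold change 0.64, SE 0.24, edgeR adjusted p = 0.129). Oas1a, an enzyme of the OAS family, was at 3.38 CPM ± 1.16 and 5.68 ± 1.59 (log2 fold change 0.74, SE 0.22, edgeR adjusted p = 0.0581). Oas2, a larger enzyme of the family, was at 4.15 CPM ± 1.44 and 6.71 ± 2.72 (log2 fold change 0.70, SE 0.27, edgeR adjusted p = 0.135).

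Some border macrophage and monocyte markers rose with treatment in astrocytes. Of 9 such genes, 7 were tested and 2, Cd163 and Siglec1, were higher in CIE, while the rest were not called. The log2 fold changes of the 7 ran from -0.14 to 1.51, with a median of 0.80. The summed level of the list was 53 to 219 CPM in control and 83.5 to 324 CPM in CIE astrocytes, and none of the 9 was at 0 in all control libraries. With the mean of these markers as a covariate none of the 4 genes passed, with log2 fold changes of 0.34 for Ifit2 (edgeR adjusted p = 0.313), 0.85 for Ifit3 (0.0631), 0.49 for Ifit3b (0.182) and 0.71 for Oasl2 (0.127), while calls over all genes fell from 375 to 75 higher. Siglec1 is itself interferon-inducible, and without it in the covariate Ifit3 passed alone of the members (0.88, edgeR adjusted p = 0.0405). That fit called 167 genes higher over all genes. The microglia markers summed to 1502 to 6073 CPM in control and 2590 to 5894 in CIE astrocytes, and with them or the endothelial markers as a covariate 5 of the 10 genes were higher. Calls over all genes rose as well in these 2 fits, from 375 to 671 and 475 higher. Of 10 neutrophil markers, 0 passed the count filter in astrocytes. Their sum was 1.1 to 15 CPM in control and 3.43 to 192 CPM in CIE astrocytes, and DESeq2 called 4 of the 8 it tested higher. The part of neutrophil markers in the astrocyte changes was not tested.

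**Figure D1:**
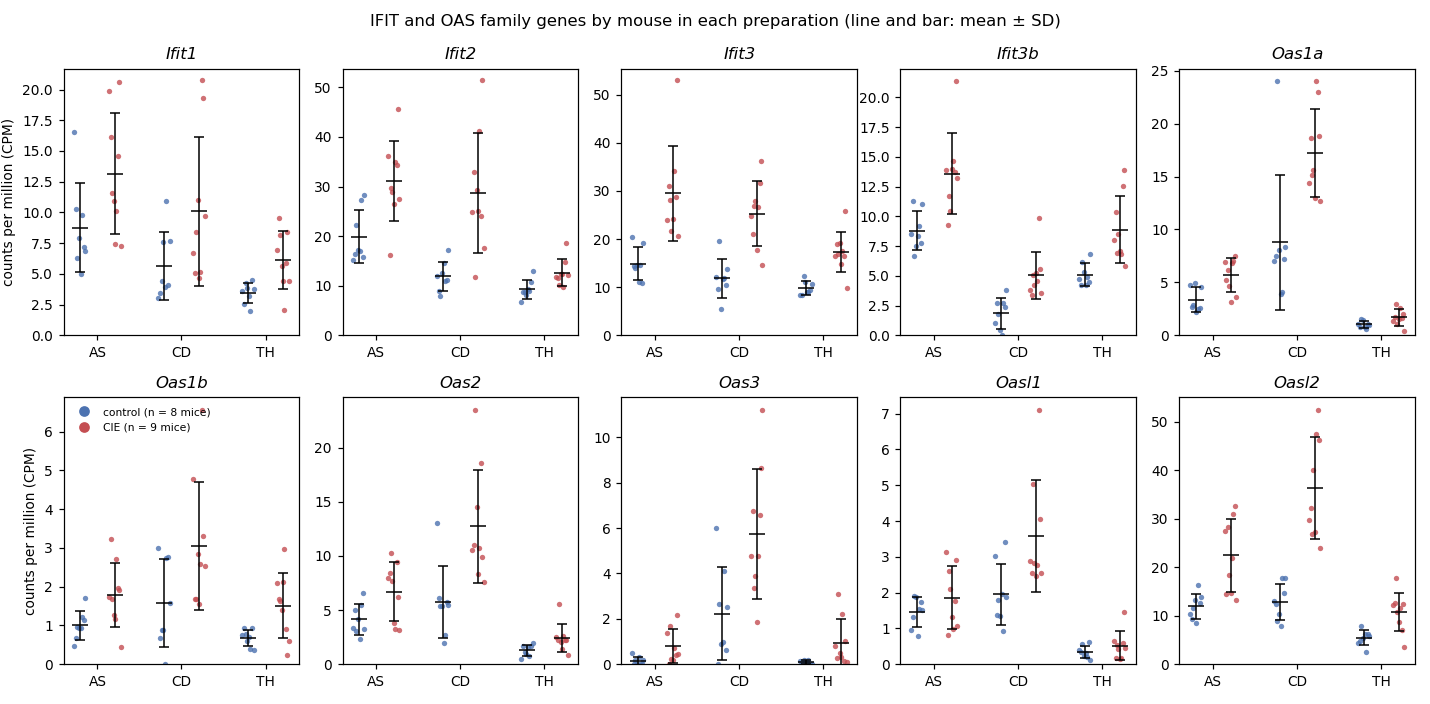
CPM of the 10 genes, 1 point per mouse, by preparation (AS astrocytes, CD microglia, TH total homogenate) and treatment (blue control, n = 8; red CIE, n = 9), with mean and SD. Each panel has its own axis from 0. Ifit3 in astrocytes and Oasl2 in microglia show no overlap between the groups. Outside microglia Oas3 lies near 0 in control mice, and it reaches 2.16 CPM in CIE astrocytes and 3.11 CPM in CIE homogenate.

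In microglia, 5 of the 10 genes were higher in CIE mice: Ifit2, Ifit3, Oas1a, Oas2 and Oasl2. Of 10761 genes tested, 2.31% were called higher. Ifit1 was tested and missed the threshold, and Ifit3b, Oas1b, Oas3 and Oasl1 were below the filter. In bulk RNA a change in the number of cells of a type and a change in RNA per cell cannot be told apart.

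Oasl2 had the largest change of the 6 genes that passed the filter in microglia and the 4th smallest p-value of all genes there. Its level was 7.79 CPM in the lowest control mouse, 12.7 at the median and 17.8 in the highest, and 23.9, 32.1 and 52.5 CPM in CIE mice. The groups did not overlap, as was true with CIE higher for 0.242% of genes tested. The log2 fold change was 1.45 (SE 0.19, edgeR adjusted p = 0.000852), and without each mouse in turn it stayed between 1.37 and 1.56 with every adjusted p at or below 0.00379.

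Ifit2 went from 11.9 CPM ± 2.95 to 28.7 ± 12, a log2 fold change of 1.28 (SE 0.23, edgeR adjusted p = 0.00484), with 8 of 9 CIE mice above the highest control mouse. Ifit3 went from 11.8 CPM ± 4.02 to 25.3 ± 6.76, a log2 fold change of 1.12 (SE 0.21, edgeR adjusted p = 0.00629), with 7 of 9 above it. Both calls held without each mouse in turn.

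The calls of both OAS enzymes were less stable. Oas1a was at 3.9, 7.39 and 24 CPM (lowest, median, highest) in control mice and at 12.7, 15.6 and 24 CPM in CIE mice. All 9 CIE mice were above the control median and none was above control mouse 19, which stood at 24 CPM from 27 counts while the next control mouse was at 8.33 CPM. The log2 fold change of Oas1a was 1.04 (SE 0.26, edgeR adjusted p = 0.0316), it was 1.35 without that mouse (edgeR adjusted p = 0.00325), and the call was kept in 8 of the 17 fits that left out 1 mouse. Oas2 went from 5.73 CPM ± 3.32 to 12.7 ± 5.23, a log2 fold change of 1.11 (SE 0.28, edgeR adjusted p = 0.0309), and kept its call in 11 of 17 such fits. Ifit1 had a mean of 5.64 CPM ± 2.81 in control and 10.1 ± 6.05 in CIE microglia and was not called (log2 fold change 0.77, SE 0.34, edgeR adjusted p = 0.243).

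Neutrophil markers moved with treatment in the microglia preparation. All 9 of the 10 listed markers that were tested were higher in CIE, among them Cxcr2 and S100a9, and the summed level was 95.7 to 241 CPM in control and 88.8 to 6159 CPM in CIE libraries, with no marker at 0 in all control libraries. With these markers as a covariate Oasl2 (log2 fold change 1.49, edgeR adjusted p = 0.00835), Ifit2 (1.54, 0.0137) and Ifit3 (1.23, 0.0302) remained called. That fit called 49 genes higher over all genes in place of 249. The changes of Oas1a (0.99, edgeR adjusted p = 0.211) and Oas2 (1.08, 0.201) kept their size and lost the call. Microglia markers summed to 22136 to 32919 CPM in control and 15688 to 23756 CPM in CIE libraries, and with them as a covariate only Oasl2 passed (1.35, edgeR adjusted p = 0.0337), in a fit that called 16 genes higher in place of 249. In that fit Ifit2 (1.35, edgeR adjusted p = 0.0556) and Ifit3 (1.2, 0.0689) missed the threshold with changes no smaller than without the covariate, and Oas2 (1.06, 0.326) and Oas1a (0.84, 0.416) missed it with smaller ones.

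Of the 5 oligodendrocyte markers, all tested in the microglia preparation, edgeR called 1 higher in CIE, Mobp (log2 fold change 1.70, edgeR adjusted p = 0.0053), and DESeq2 called 3. They summed to 1558 to 5132 CPM in control libraries (median 3055) and to 1726 to 6741 CPM in CIE libraries (median 4881), and none was at 0 in all control libraries. In astrocytes Mobp was called as well (1.03, edgeR adjusted p = 0.0127), and the sums were 13672 to 19754 CPM in control and 14099 to 19475 CPM in CIE libraries. The part of these markers in the changes of the IFIT and OAS genes was not tested.

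In total homogenate, 1 of the 10 genes, Ifit3, was higher in CIE mice, where 0.193% of the 13982 genes tested were called higher and 0.0644% had CIE mice above all controls without overlap. Ifit3 was at 8.29, 9.19 and 12.3 CPM (lowest, median, highest) in control mice and at 9.82, 16.9 and 25.9 CPM in CIE mice. All CIE mice but 1, mouse 41, were above the highest control mouse. The log2 fold change was 0.83 (SE 0.15, edgeR adjusted p = 0.0168) and the call held without each mouse in turn. It did not hold without the 4 mice numbered under 10 (0.76, edgeR adjusted p = 0.2), where only 6 genes in all were called higher.

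The other genes in total homogenate had higher means in CIE mice without passing the test. Ifit3b was at 5.1 CPM ± 0.948 and 8.89 ± 2.79 (log2 fold change 0.81, SE 0.18, edgeR adjusted p = 0.0661), with 8 of 9 CIE mice above the highest control mouse. Oasl2 was at 5.41 CPM ± 1.54 and 10.7 ± 3.97 (log2 fold change 1.01, SE 0.25, edgeR adjusted p = 0.108). Ifit1, Ifit2, Oas1a and Oas2 had log2 fold changes between 0.45 and 0.87 with edgeR adjusted p from 0.172 to 0.481. Neutrophil markers summed to 3.5 to 25.7 CPM in control and 5.14 to 803 CPM in CIE homogenate, and with them as a covariate Ifit3 (0.85, edgeR adjusted p = 0.0204) and Ifit3b (0.95, 0.0135) were called. The fit with neutrophil markers called 30 genes higher over all genes. DESeq2 called 5 of the 10 genes higher in homogenate: Ifit1, Ifit3, Ifit3b, Oas3 and Oasl2. Over all genes it called 162 of 16153 higher there.

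**Figure D2:**
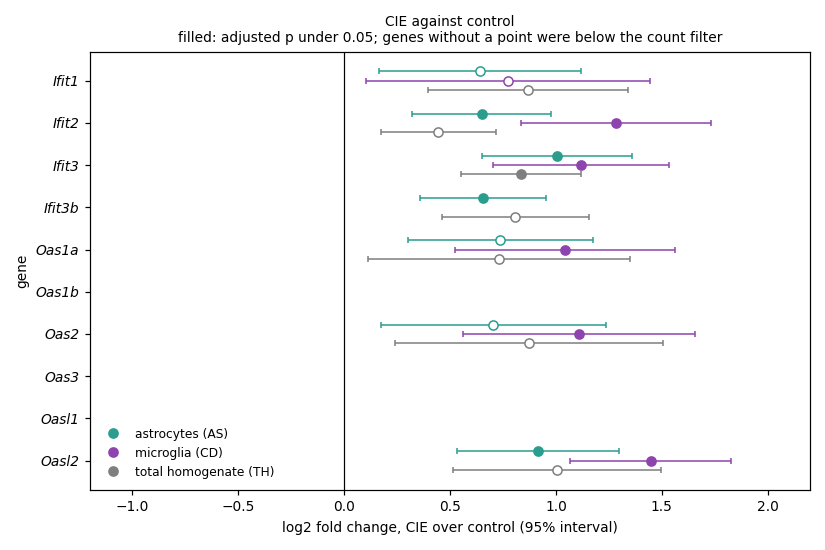
Log2 fold change of CIE over control for each gene that passed the count filter, with an interval of 1.96 SE on either side, by preparation. Filled points passed the edgeR threshold: 4 for astrocytes, 5 for microglia and 1 for homogenate, and every tested gene had a point above 0.

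The genes below the filter rested on few counts. Ifit3b, which passed the filter in the other preparations, was at 1.85 CPM ± 1.29 in control and 5.03 ± 1.96 in CIE microglia, from 49 and 117 counts. All 9 CIE mice were above its control median and 7 of 9 above the highest control mouse. With no filter its log2 fold change was 1.21 (edgeR adjusted p = 0.0863), and DESeq2 called it higher (1.22, adjusted p = 0.0317). Oas3, the largest OAS enzyme, had 5 counts over the 8 control and 45 over the 9 CIE astrocyte libraries. The counts were 40 and 146 for microglia, and 8 and 63 for homogenate. In homogenate, 7 of 9 CIE mice were above the highest control mouse, with CIE mice 23 and 26 the highest at 3.11 and 2.22 CPM. With no filter the log2 fold changes of Oas3 were 2.36 in astrocytes, 1.51 in microglia and 2.94 in homogenate, with edgeR adjusted p of 0.0722, 0.0836 and 0.113. DESeq2 called Oas3 higher in all 3 preparations, with adjusted p of 0.047, 0.0351 and 0.0162. Oas1b had 38 and 97 counts in astrocytes, and Oasl1, an OAS-like repressor of Irf7 translation, had 54 and 106. These sums run over unlike numbers and depths of libraries. In CPM, Oas1b went from 1.01 ± 0.373 to 1.79 ± 0.823 there, and Oasl1 from 1.45 ± 0.414 to 1.86 ± 0.879. With no filter their log2 fold changes in astrocytes were 0.73 and 0.33, and neither passed in any preparation (edgeR adjusted p of 0.238 or more).

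Mouse numbers fell in 3 ranges (03 to 08, 19 to 26 and 35 to 41), and the labels do not say whether these mark batches. Each range held mice of both treatments. Within each range and each preparation, every gene that passed the filter had a higher mean in CIE mice, with differences in log2 CPM of 0.21 to 1.10 (astrocytes), 0.24 to 1.85 (microglia) and 0.20 to 1.37 (homogenate).

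The size of the CIE response did not differ between preparations for any of the 10 genes by the test of the difference. Of 14379 genes tested, 0.529% differed between microglia and astrocytes, 0.828% between microglia and homogenate and 0.00695% between astrocytes and homogenate. The edgeR count of 0 members in each was also 0 by DESeq2 and with the mouse as a block. At an unadjusted p under 0.05 the count was 1, 1 and 0, and the gene was Ifit2 both times. The response of Ifit2 was larger in microglia than in homogenate by 0.82 on the log2 scale (SE 0.28, interval 0.27 to 1.36, edgeR adjusted p = 0.167) and than in astrocytes by 0.61 (SE 0.28, interval 0.06 to 1.15, edgeR adjusted p = 0.396). For Ifit3 the response in microglia minus that in astrocytes was 0.09 (interval -0.44 to 0.62), and for Oasl2 it was 0.49 (interval -0.14 to 1.13). A difference of 1 log2 unit for Oasl2 therefore lies within what these libraries allow.

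Levels of the 10 genes were next compared among the 8 control mice, on a scale shared by all libraries. Per kilobase of exon, Ifit3 was the highest of the 10 genes in every preparation, at 7.67 CPM per kb ± 1.71 for astrocytes, 7.46 ± 2.48 for microglia and 5.64 ± 0.81 for homogenate. Oas3 was the lowest in every preparation, at 0.0184 CPM per kb ± 0.0225, 0.345 ± 0.307 and 0.0143 ± 0.0108. The rest of the order differed. Ifit2 was next in astrocytes at 4.56 CPM per kb ± 1.25, followed by Ifit3b at 3.95 ± 0.717, and in homogenate Ifit3b (2.57 ± 0.472) and Ifit2 (2.38 ± 0.483) lay within each other's spread. In microglia Oas1a came next at 5.11 CPM per kb ± 3.62, a spread widened by mouse 19, and Ifit3b was 7th at 1.04 ± 0.739.

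**Figure D3:**
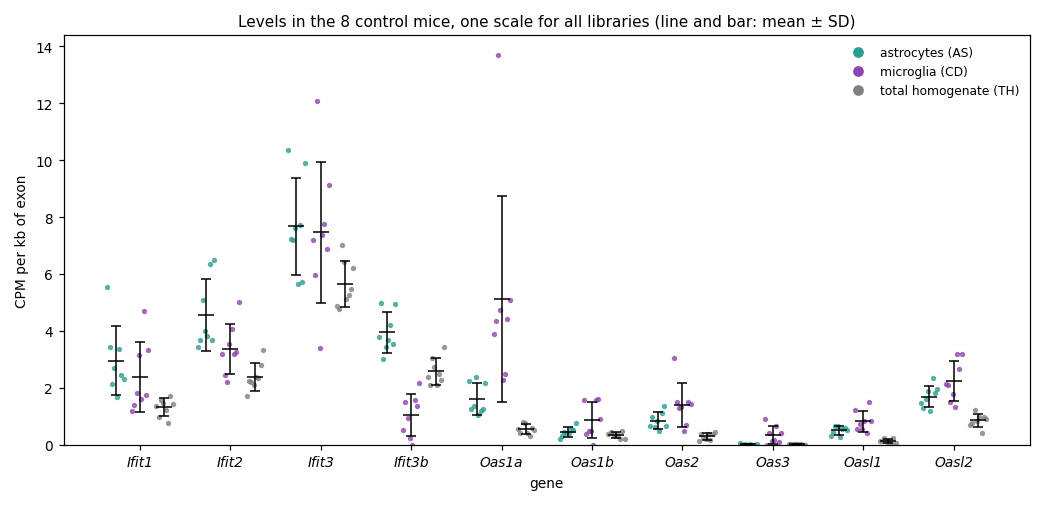
Levels of the 10 genes in the 8 control mice as CPM per kb of exon on a scale shared by all libraries, 1 point per mouse, with mean and SD, coloured by preparation. Ifit3 is highest in each preparation, and Ifit3b is lower in microglia than in the other preparations while Oas1a is higher there.

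Of the 6 OAS genes, the 3 that were tested were higher in control microglia than in homogenate. Against total homogenate, Oas1a was higher in control microglia by 3.28 on the log2 scale (SE 0.30), Oas2 by 2.29 (SE 0.29) and Oasl2 by 1.57 (SE 0.20). Ifit1 was higher by 1.06, Ifit2 by 0.62 and Ifit3 by 0.46. Ifit3b was lower, by -0.93 on the log2 scale (SE 0.25, edgeR adjusted p = 0.00147). These 6 higher and 1 lower calls stand against 39.8% of all genes called higher and 44.6% called lower in this comparison, where most genes differ.

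All 7 genes tested were higher in control astrocytes than in homogenate, from 0.53 for Ifit3 to 1.72 for Oas1a on the log2 scale, where 41% of genes were higher and 37.8% lower. Between control microglia and astrocytes, Oas1a (1.56, SE 0.28), Oas2 (0.72, SE 0.28) and Oasl2 (0.46, SE 0.19) were higher in microglia, and Ifit2 (-0.42, SE 0.18) and Ifit3b (-1.64, SE 0.25) were lower, beside 35.3% and 36.6% of all genes. Ifit1 (-0.17) and Ifit3 (-0.07) were not called in that comparison. With the mouse as a block, Oas2 (edgeR adjusted p = 0.0545) and Oasl2 (0.0753) missed the threshold and 3 of the 7 genes stayed called. Oas1b, Oas3 and Oasl1 were below the filter in these level comparisons.

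The ratio of the control mean in astrocytes to that in microglia placed the genes between the marker lists. It was 0.116 to 0.203 for the 8 microglia markers, 1.16 to 1.69 for 6 endothelial markers and 12.8 to 63.6 for 8 astrocyte markers. Oligodendrocyte markers, which were high in the astrocyte preparation, were not part of this comparison. The ratio was 1.25 for Ifit1, 1.03 for Ifit3 and 1.36 for Ifit2, which was lower in microglia by the test above. Oas1a (0.315), Oas2 (0.597), Oasl1 (0.606) and Oasl2 (0.755) were lower in astrocytes, though above the microglia markers' ratios, and Oas3 (0.0533) was below them on few counts. Ifit3b stood highest at 3.81.

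**Figure D4:**
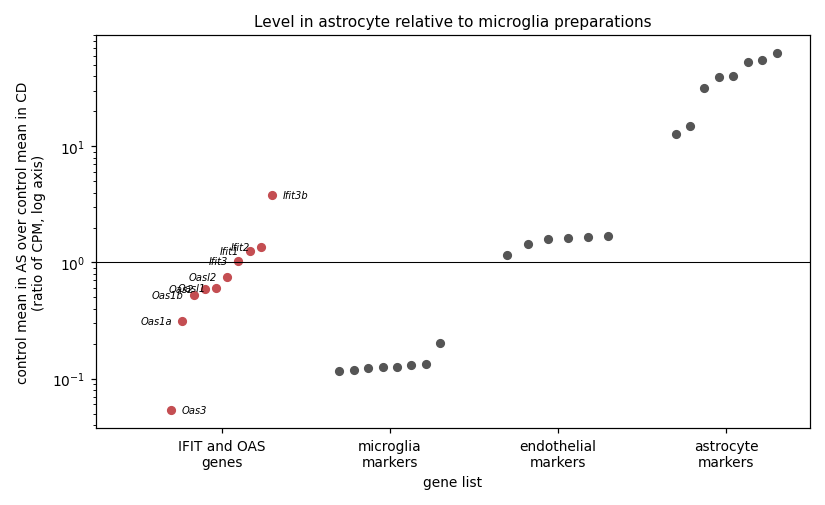
Ratio of the mean CPM in control astrocytes to that in control microglia, on a log axis, for the 10 genes (red) and for microglia, endothelial and astrocyte marker genes (grey), 1 point per gene. Oas3 lies at 0.0533, Ifit1, Ifit2 and Ifit3 lie between 1.03 and 1.36, and Ifit3b lies at 3.81.

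The 2 Ifit3 copies, which carry the same letters around both response elements shown above, thus differed in how their levels compared between preparations. The part of promoter sequence in this difference was not tested. In microglia, Ifit3b accounted for 13.1% ± 8.15 (SD, n = 8) of the combined Ifit3 and Ifit3b counts of control mice, and for 16.7% ± 4.27 (SD, n = 9) in those given CIE. The share in astrocytes was 37.4% ± 5.24 for control and 32.1% ± 4.98 for CIE, and in homogenate it was 34.2% ± 2.33 and 33.8% ± 4.61. It was lower in microglia than in homogenate in 17 of 17 mice, by 19 points on average, and lower than in astrocytes in 17 of 17, by 19.6 points (exact permutation test by sign within mice, two-sided, p = 1.53e-05 for each, the smallest it can give, adjusted p = 4.58e-05 over 6 tests of the share). Astrocytes and homogenate differed by 0.599 points (exact permutation p = 0.715, adjusted p = 0.794). CIE did not change the share past the threshold in astrocytes (-5.32 points, exact permutation p = 0.0493, adjusted p = 0.0986), microglia (3.66 points, adjusted p = 0.385) or homogenate (adjusted p = 0.794). The share was chosen for testing after the levels had been seen.

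Part of each copy cannot be told from the other by reads. Of the 150-base windows of the Ifit3 transcript, 18.5% also occurred in Ifit3b, and 16% of those of Ifit3b occurred in Ifit3. Combined counts in microglia were as low as 12 in 1 control library, in which Ifit3b had 0. For Oas1a, 32.4% of windows were shared with its paralog Oas1g, so the level of Oas1a may be understated or split. Ifit1 shared 1.24% with Ifit1bl2, and the other 6 genes shared none with another annotated transcript.

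**Figure D5:**
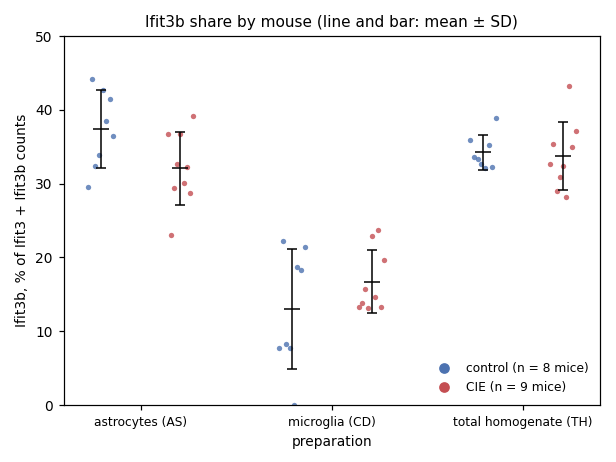
Share of Ifit3b in the combined counts of Ifit3 and Ifit3b, in percent, by preparation and treatment, 1 point per mouse with mean and SD. Microglia lie between 0 and 23.7%, and astrocytes and total homogenate between 23 and 44.2%.

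Members tended to vary together across mice within a preparation. After the treatment means were removed, the median Pearson r over the 21 pairs of tested genes was 0.458 in astrocytes (range -0.178 to 0.713, n = 17 mice) and 0.422 over 21 pairs in homogenate (-0.118 to 0.808), and over 15 pairs in microglia it was 0.212 (-0.299 to 0.5). These are descriptions, since the pairs share libraries and depth.

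Of 19 correlations of a gene between 2 preparations, each over 17 mice with treatment means removed, 18 were above 0 and none passed the threshold after adjustment over the 19. The smallest permutation p was that of Oas1a between microglia and homogenate (Pearson r = 0.528, permutation p = 0.00323, adjusted p = 0.0614). Its Spearman rho was 0.672 (permutation p = 0.00496, adjusted p = 0.0942), and r was 0.579 without the 2 mice farthest from the median in microglia. The largest Pearson r was 0.582, for Oasl2 between astrocytes and microglia (permutation p = 0.0199, adjusted p = 0.126). Without the 2 farthest mice in each case, 2 of the 19 passed, both between microglia and homogenate: Ifit3 (r = 0.759, permutation adjusted p = 0.0162) and Oas2 (r = 0.782, permutation adjusted p = 0.0154).

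The genes outside the 2 families that varied most like the mean of the tested members differed by preparation. In astrocytes they were Samd9l (Pearson r = 0.842, n = 17 mice), Clec14a (0.82), Ifitm3 (0.804), Ly6e (0.784) and AW112010 (0.753). In microglia they were Hebp1 (0.785), Knop1 (0.768), Usp18 (0.768), Spns2 (0.735) and Ttf1 (0.733). In homogenate they were Galnt1 (0.828), Lgals9 (0.82), Lamp2 (0.803), Parp14 (0.802) and Steap3 (0.798). Of these, Ly6e in astrocytes and Usp18 in microglia, which removes the ubiquitin-like protein Isg15 and restrains interferon signaling, were also higher in CIE.

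Of 11 listed genes of interferon receptor signaling, 10 were tested in each preparation, and edgeR called 3 higher in astrocytes, 4 in microglia and 1 in homogenate, with none lower. DESeq2 gave the same counts higher and called 1 gene of the list lower, in astrocytes. Stat2 and Irf9 were higher in both glial preparations, with log2 fold changes of 0.36 and 0.49 in astrocytes and 0.83 and 0.38 in microglia. Irf7, an interferon-induced factor that drives interferon genes, was higher in all 3, by 1.07 in astrocytes (edgeR adjusted p = 0.00914), 1.2 in microglia (0.0053) and 1.06 in homogenate (0.0216). The median log2 fold change over the tested genes of this list was 0.14 in astrocytes, 0.0018 in microglia and 0.06 in homogenate, beside medians within 0.01 of 0 over all genes. The receptor chain Ifnar1 had log2 fold changes of -0.27 in astrocytes (edgeR adjusted p = 0.0769) and -0.20 in microglia (0.302).

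Of 8 listed genes of RNA sensing and response, Dhx58 was higher in astrocytes (0.85, edgeR adjusted p = 0.0357). In microglia Dhx58 (0.68), Eif2ak2, the kinase that halts translation on double-stranded RNA (0.52), and Adar, which edits it (0.38), were higher, and Mavs, the adaptor of the RIG-I-like receptors, was lower (-0.31, edgeR adjusted p = 0.0316). In homogenate 0 of the 8 passed by edgeR, 4 had an unadjusted p under 0.05, and DESeq2 called 2.

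Other listed genes of nucleotide second messengers were not called. Of Abce1, a ribosome recycling factor, Pde12, which degrades 2′-5′-oligoadenylates, and the cGAS and STING genes Mb21d1 and Tmem173, 0 of 4 passed by edgeR in each preparation. At an unadjusted p under 0.05 the count was 0 in astrocytes, 1 in microglia (Tmem173, log2 fold change -0.32) and 0 in homogenate, and DESeq2 called 1 of them, in microglia, where it was lower. Of 8 other IFIT and OAS paralogs, 1 was tested, Ifit1bl1 in homogenate (0.37, edgeR adjusted p = 0.723).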

How the data were processed

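Poly(A) RNA of 3 preparations from 17 mice was sequenced as paired reads of 150 bases. Per the labels and the study's methods, the authors used Cutadapt 1.8 for trimming, STAR 2.5.0a for alignment (mm10), Picard 1.141 against duplicates and HTSeq 0.6.1p1 for counting. The deposited values are raw counts per gene. The strand setting and annotation release are not given in the sources used here. Rows tallying reads outside genes (22.1% to 67.1% of reads) were left out.

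The members and lists were chosen with earlier results of these data known. All 51 libraries were used, and each comparison rests on the spread between mice. Within each preparation, genes passing filterByExpr were scaled by TMM and tested with edgeR 4.0.16 (R 4.3.3), quasi-likelihood, Benjamini-Hochberg adjustment at 0.05. SE was the log2 fold change divided by the square root of F. Control levels and differences of response were contrasts over groups. DESeq2 1.42.0 was an alternative. Levels per kb used the GENCODE M21 exon union. Libraries with the same number in their titles were taken as the same mouse, so the mouse was a block in an alternative. The median correlation of their deviations was 0.185, 0.166 and 0.0892 for the 3 preparation pairs. Between differently numbered libraries it was -0.00705, -0.0105 and -0.0206. The same-number correlation was over 0.1 in 9, 11 and 6 of the 17 mice. Permutation tests of correlations used 100000 resamples within treatment. Named genes were the 10 members, up to 4 genes of each other list by smallest adjusted p, and the 5 genes most like the members' mean. Abce1, Pde12, Mb21d1, Ifnar1 and Usp18 were added for their roles. Some listed genes are not reported here and were left out of the list counts. The scripts were tested on simulated data.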

Additional observations from a re-analysis of the deposited data

Results flagged for a closer look

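Oas1a in control mouse 19 of the microglia preparation was at 24 CPM, and the next control mouse was at 8.33 CPM. The gap was 60% of the range of the 8 control mice on the log2 scale, past Dixon's 95% critical value. Of 40 groups of members checked this way, 1 stood out, and chance alone gives about 1 in 20.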

How the results depend on the processing

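Every gene that passed the filter kept a positive change with CIE in its preparation under each setting. DESeq2 called 6 genes higher in astrocytes, among 630 of 15060 genes, and 7 in microglia, among 494 of 13053. Beside 4 genes called higher in astrocytes, 0 were called with border macrophage markers as a covariate and 1 with those markers without Siglec1. Beside 5 in microglia, 3 were called with neutrophil markers and 1 with microglia markers as a covariate. Beside 1 in homogenate, 5 were called by DESeq2, 2 with the range of mouse numbers, 2 with neutrophil markers and 4 with border macrophage markers as a covariate, and 0 without the 4 mice numbered under 10. Over all genes, the calls higher in homogenate were 27 in the main fit and, in that order, 162, 59, 30, 91 and 6. Leaving out 1 mouse gave 3 to 5 genes in astrocytes, 3 to 5 in microglia (3 without control mouse 20, 35, 36 or 37 or CIE mouse 39) and 1 to 3 in homogenate (2 without control mouse 37 or CIE mouse 26, 3 without CIE mouse 41). With the mouse as a replicate block, 3 genes differed between control microglia and astrocytes in place of 5. The block changed no other count of calls. Of the control levels, RLE scaling called 6 genes in place of 7 between microglia and homogenate, without Ifit3, and 4 in place of 5 between microglia and astrocytes, without Oasl2. DESeq2 called 9 and 8 in place of 7 each against homogenate, for microglia and astrocytes, and 6 between microglia and astrocytes. Without the 2 farthest mice, 2 correlations between preparations passed in place of 0. The difference in the response of Oas1a between astrocytes and homogenate was 0.03 and became -0.00273 with RLE scaling and -0.0103 by DESeq2. The causes were not tested. Covariates other than neutrophil markers in microglia, microglia and border macrophage markers in astrocytes and mouse ranges were chosen after seeing the data. Low depth in microglia limits what Ifit3b, Oas1b, Oas3 and Oasl1 can show there.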
